A study of Mus musculus with 10 samples.

Results

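The genes described here are 10 genes of dietary fat absorption in the small intestine: Fabp1, Fabp2, Apoa1, Apoa4, Apob, Apoc3, Mttp, Mogat2, Dgat1 and Dgat2. They were found through the gene name that the scanner files give each probe, which yielded 19 probes and 28 spots per array, out of 41174 gene probes and 27827 gene names. Expression was measured on 10 Agilent 2-colour arrays of mouse RNA, each sampled 1 day after the perturbation began.

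In Lgr4/Lgr5-deleted mice, both R-spondin receptors were removed through P450Cre, which acts once an inducer is given, and small intestinal crypts were detached with EDTA a day later. Their RNA shared each of 4 arrays with RNA of wild type control crypts, as 2 biological replicates, and each replicate filled 2 arrays of opposite dye orientation. Whether the control mice received the inducer, and how many mice gave a replicate, is not stated in the labels. Lgr4/5-deleted organoids (2 cultures) carried VillinCre, which is active in intestinal epithelium, and were induced with tamoxifen; wild type organoids (2 cultures) came from VillinCre_wt mice and had the tamoxifen too. The last pair was 1 organoid culture kept without R-spondin after splitting, in medium with EGF and Noggin (EN), and 1 kept with R-spondin (ENR). Organoid RNA was always labelled with Cy5, and the Cy3 channel held mouse reference RNA from a supplier. Organoids are crypt cells grown as miniature epithelia, so no villus, blood vessel or immune tissue grows with them.

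R-spondin, a secreted protein, strengthens Wnt signals through Lgr4 and Lgr5 and so keeps crypt stem cells dividing. Cells that leave the crypt mostly become enterocytes, the absorptive cells of the villus. Enterocytes take up fatty acids and monoacylglycerol from digested fat, carry the fatty acids on the binding proteins Fabp1 and Fabp2, rebuild triglyceride with Mogat2, Dgat1 and Dgat2, load it through Mttp onto apolipoprotein B, and secrete chylomicrons that also bear the apolipoproteins of Apoa1, Apoa4 and Apoc3. All 10 genes are known to be active in mature enterocytes, and several of them in liver or fat as well.

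The Apob message is read by 5 probes at different places along the gene, shown because the 2 crypt replicates disagreed on Apob and all 5 probes bear on that. Coordinates of probes are those of mm9, the build named in the array files. The first probe spans an exon junction, and the last 2 lie end to end.
Apob, chr12:8005482-8007691, plus strand: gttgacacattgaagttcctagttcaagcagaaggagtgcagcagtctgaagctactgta
Apob, chr12:8014710-8014769, plus strand: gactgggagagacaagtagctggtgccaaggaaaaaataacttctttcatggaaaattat
Apob, chr12:8018741-8018800, plus strand: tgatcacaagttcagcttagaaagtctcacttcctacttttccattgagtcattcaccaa
Apob, chr12:8023134-8023193, plus strand: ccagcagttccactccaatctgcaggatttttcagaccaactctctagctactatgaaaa
Apob, chr12:8023194-8023253, plus strand: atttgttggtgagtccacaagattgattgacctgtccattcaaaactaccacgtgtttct

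The 2 probes of Apoc3, shown because they overlap and so do not measure the gene independently, share 50 bases, which are in capitals.
Apoc3, chr9:46041363-46041422, minus strand: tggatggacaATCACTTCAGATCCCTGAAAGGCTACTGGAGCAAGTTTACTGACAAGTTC
Apoc3, chr9:46041353-46041412, minus strand: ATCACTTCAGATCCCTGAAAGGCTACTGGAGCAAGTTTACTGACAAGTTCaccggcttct

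Mogat2 and Dgat2 are next to each other on chromosome 7, with no other protein-coding gene of the RefSeq table between them, and Apoa1, Apoc3 and Apoa4 follow one another on chromosome 9. Promoter windows from RefSeq (GRCm38.p6, 250 bases before to 50 after the start) were at hand for 6 of the 10 genes: Fabp1, Fabp2, Apoa1, Apoa4, Apob and Mttp. Each was searched on both strands for TTTATNG (N is any base), the core that the intestinal factor CDX2 is known to bind, for TATAAA, for the GATA core AGATAAG, and for the HNF4 and DR1 elements CAAAGTCCA and CAAAGGTCA. The TTTATNG core was in 3 of the 6, Fabp1, Fabp2 and Apob, against 10.9% of the 32851 windows of all genes. TATAAA was in 2, Fabp1 and Apob, against 13.6% of all windows, and in Apob the 2 matches overlapped. None of the 6 held AGATAAG (3.04% of all windows), CAAAGTCCA (0.475%) or CAAAGGTCA (0.478%). The windows of the 2 fatty acid binding proteins are shown because Fabp1 holds 3 matches to the core and Fabp2 holds 1; matches to TTTATNG, which on the other strand reads CNATAAA, and to the TATA element are in capitals.
Fabp1 promoter, chr6:71199629-71199928, plus strand: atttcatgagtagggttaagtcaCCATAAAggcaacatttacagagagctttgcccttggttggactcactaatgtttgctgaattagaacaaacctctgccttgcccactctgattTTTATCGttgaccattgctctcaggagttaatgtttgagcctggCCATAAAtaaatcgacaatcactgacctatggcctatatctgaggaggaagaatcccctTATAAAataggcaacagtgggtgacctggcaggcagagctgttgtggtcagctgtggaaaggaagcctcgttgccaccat
Fabp2 promoter, chr3:122894822-122895121, plus strand: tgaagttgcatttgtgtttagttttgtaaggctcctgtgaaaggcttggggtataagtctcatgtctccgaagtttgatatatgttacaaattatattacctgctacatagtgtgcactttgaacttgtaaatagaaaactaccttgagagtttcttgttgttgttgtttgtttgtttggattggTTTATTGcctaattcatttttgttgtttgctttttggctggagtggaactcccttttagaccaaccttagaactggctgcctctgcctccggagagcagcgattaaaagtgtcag

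The arrays can be described in a few facts. The brightest probes of both deleted receptors read lower with the deletion. The brightest Lgr5 probe had log2 ratios of -1.50, -2.27, -1.54 and -1.42 on the crypt arrays, and 70.8 and 78.1 intensity units in deleted organoids, where it was not well above background, against 985 and 1747 in wild type organoids. The brightest Lgr4 probe had log2 ratios of -1.50, -1.52, -1.77 and -1.45 in crypts, and another Lgr4 probe had -0.99, -0.92, -1.15 and -1.15. In organoids the brightest Lgr4 probe read 160 and 285 units in deleted cultures, against 2046 and 3223 in wild type cultures. That was a difference of -3.59 by Cy5, and the other probe gave -3.39. A dim Lgr4 probe went the other way, at 0.25, 0.18, 1.20 and 0.97 in crypts and 0.14 in organoids by Cy5, and the remaining Lgr4 probe and the second Lgr5 probe lay between -0.18 and 0.20 in crypts. The labels do not say which exons were deleted. No spot was saturated. The dye-swapped arrays of crypt replicate 1 correlated at r = 0.343 over 16495 probes, against r = 0.916 for replicate 2, so replicate 1 is the noisier measurement. On the 4 organoid deletion arrays only 3.66% to 4.26% of gene spots were above background in the Cy3 reference channel, against 48.9% to 60.8% on the other arrays. The negative control spots there had median Cy3 signals of 5883 to 6564 units, brighter than the gene spots, at 1830 to 1933. On the other arrays the negative controls were dimmer than the gene spots. Organoid deletion is therefore given from the Cy5 channel, which holds the organoid RNA, with the ratio to the reference beside it. Organoid deletion ratios, those of the series matrix included, rest on this poor Cy3 channel. Their sizes and signs are given as description only. With so few arrays, precision is low throughout. In bulk RNA, fewer cells of a type and less RNA per cell cannot be told apart.

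In crypts, all 10 genes averaged above 0 in deleted over wild type crypts, between 0.34 (Dgat1) and 1.04 (Dgat2) on the log2 scale, and none passed the test (limma, Benjamini-Hochberg adjustment over 12233 genes, adjusted p 0.198 or more). Among all genes tested, the calls at an adjusted p under 0.05 made up 0.229% on the higher and 0.049% on the lower side. At an unadjusted p under 0.05, 4 of the 10 were higher (Fabp1, Mttp, Mogat2 and Dgat2) and none was lower, against 6.59% higher and 7.56% lower over all genes. The median of the 10 genes was 0.65, against -0.02 for all genes tested. In the ranking of all genes by log2 ratio, the 10 lay between the 84.6th percentile (Dgat1) and the 98.2nd (Dgat2). Deleted read above wild type on all 4 arrays for 8 of the 10, against 16.2% of the 11555 genes with 4 values; Apoa1 and Apob were the exceptions.

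**Figure D1:**
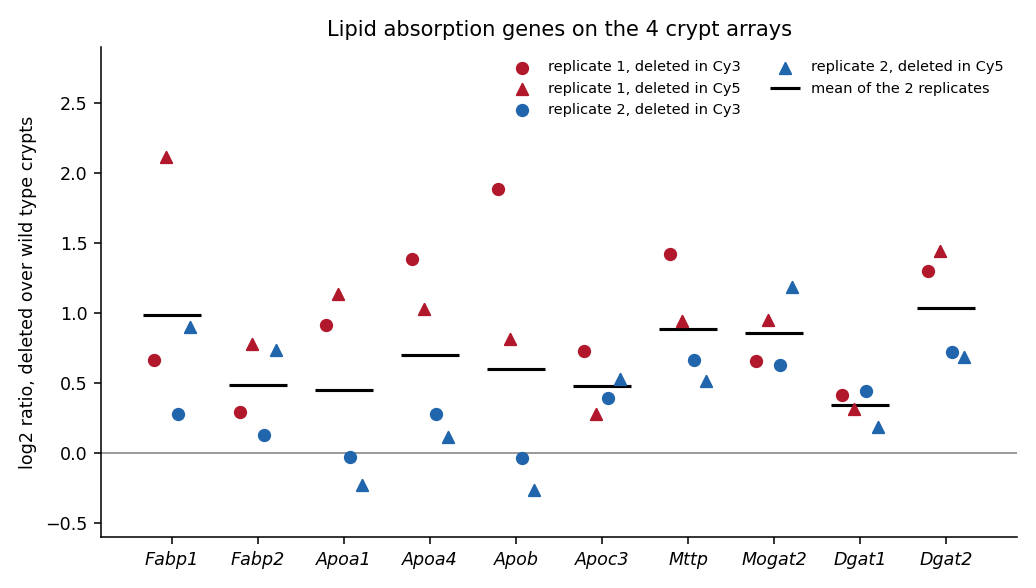
Log2 ratios of deleted over wild type crypts (y axis) for each gene (x axis), by its brightest probe with a value in both replicates. There is 1 point per array, coloured by replicate, with a bar at the mean of the 2 replicates. The points of replicate 1 lie above 0 for all 10 genes, and those of replicate 2 lie below 0 for Apoa1 and Apob.

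Among the fatty acid binding proteins, Fabp1 had 184100, 293000, 118600 and 125700 normalised intensity units in deleted crypts on the 4 arrays, against 116100, 67600, 97410 and 67430 in wild type crypts on the same arrays (values on the 4 arrays are given here and below as 2 of replicate 1, then 2 of replicate 2). Deleted exceeded wild type on every array, and the lowest deleted value, 118600, was just above the highest wild type value, 116100. Here and below, the 4 values of a group come from only 2 replicates. A comparison across arrays also sets aside the pairing of deleted and wild type RNA within each array. The share of all genes whose crypt values separate in this way was not counted. The log2 ratio of Fabp1 was 0.99 (SE 0.27, n = 2, limma, adjusted p = 0.227), with 1.39 in replicate 1 and 0.59 in replicate 2. Within replicate 1 the dye-swapped arrays gave 0.67 and 2.12. Fabp2, the intestinal fatty acid binding protein, had a log2 ratio of 0.49 (SE 0.22, limma, adjusted p = 0.380), at 0.54 and 0.44 in the replicates. Its dimmer second probe had a usable value in replicate 2 only, which was -0.45, opposite in sign to the brightest probe there.

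Of the triglyceride synthesis enzymes, Mogat2 and Dgat2 had higher log2 ratios than Dgat1. Mogat2, which joins a fatty acid to monoacylglycerol, read 99090, 108200, 94750 and 96520 units in deleted crypts, against 62710, 55940, 61080 and 42380 in wild type crypts. The groups did not overlap, and the log2 ratio was 0.86 (SE 0.22, limma, adjusted p = 0.211), at 0.81 and 0.91 in the replicates. Dgat2, an enzyme of the last step to triglyceride, read 5712, 6687, 3078 and 3200 units in deleted crypts, against 2320, 2454, 1865 and 1983 in wild type crypts. Its deleted values were all above its wild type values, with a log2 ratio of 1.04 (SE 0.25, limma, adjusted p = 0.198), at 1.37 and 0.71 in the replicates. A second Dgat2 probe averaged 0.89, and another, usable in replicate 2 only, read 1.09 there. This last probe is the brightest of Dgat2, and it stands for the gene in organoids but not in crypts. Dgat1, the other enzyme of that step, differed less: its brightest probe had a log2 ratio of 0.34 (SE 0.22, limma, adjusted p = 0.513) and its second probe 0.46.

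Mttp and Apob build the lipoprotein particle. Mttp, the triglyceride transfer protein, read 12820, 11910, 7403 and 7522 units in deleted crypts, against 4778, 6200, 4662 and 5260 in wild type crypts. Every deleted value lay above every wild type value, and the log2 ratio was 0.89 (SE 0.25, limma, adjusted p = 0.228). Apob read 26950, 19200, 7746 and 8786 units in deleted crypts, against 7284, 10920, 7908 and 10530 in wild type crypts: higher with the deletion in replicate 1 and slightly lower in replicate 2. Its mean log2 ratio of 0.60 (SE 0.37, limma, adjusted p = 0.50) is made of 1.35 in replicate 1 and -0.15 in replicate 2. The 5 Apob probes printed above all did so. In the order of the sequences above, they read 0.65, 1.06, 0.55, 0.83 and 1.35 in replicate 1, whereas replicate 2 gave -0.84, -0.64, -0.31, -0.14 and -0.15. The disagreement between replicates thus held over stretches from chr12:8005482 to chr12:8023253.

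**Figure D2:**
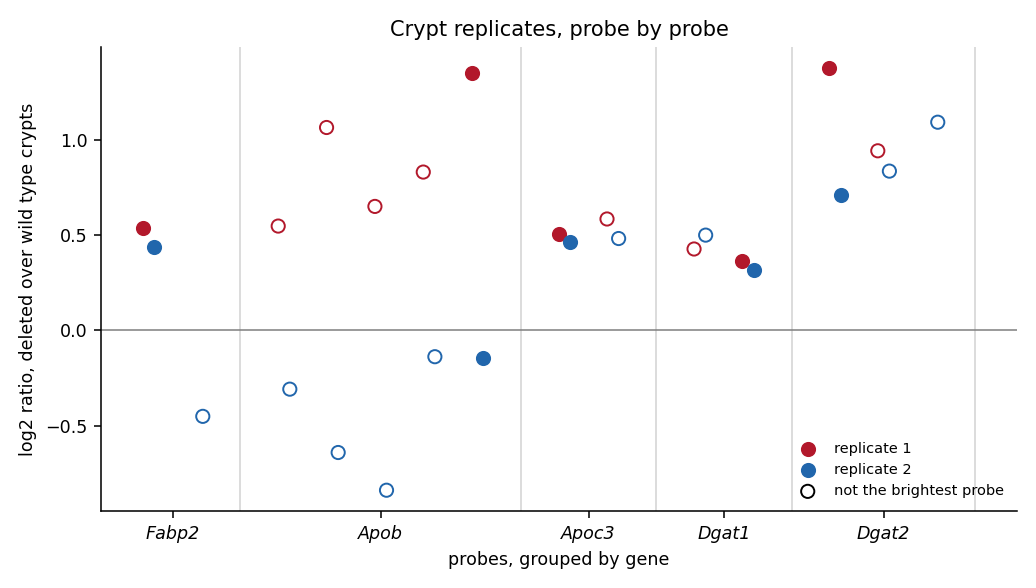
Log2 ratio of deleted over wild type crypts (y axis) for every probe of the 5 genes with several probes (x axis). There is 1 point per replicate (mean of its dye-swapped arrays), filled for the brightest probe with a value in both replicates. All 5 Apob probes are above 0 in replicate 1 and below 0 in replicate 2, whereas the Apoc3, Dgat1 and Dgat2 probes are above 0 wherever they have a value.

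Of the surface apolipoproteins, Apoa1 split between the replicates like Apob. It read 62340, 59210, 21300 and 21850 units in deleted crypts, against 33070, 26890, 21710 and 25510 in wild type crypts, which gave log2 ratios of 1.03 in replicate 1 and -0.13 in replicate 2 (mean 0.45, SE 0.32, limma, adjusted p = 0.550). The single Apoa1 probe is spotted 10 times on each array. Its spots used ranged from 0.53 to 1.40 and from 0.98 to 1.32 on the arrays of replicate 1, and from -0.12 to 0.05 and from -0.29 to -0.10 on those of replicate 2, so the replicates did not overlap spot by spot. Apoa4, which is made mainly by enterocytes, read 19120, 13170, 6447 and 5952 units in deleted crypts, against 7306, 6460, 5303 and 5492 in wild type crypts. It was higher on every array, by 1.21 in replicate 1 and 0.20 in replicate 2 (mean 0.70, SE 0.30, limma, adjusted p = 0.359). Apoc3, an inhibitor of triglyceride clearance from blood, was even, at 0.50 and 0.46 in the replicates (mean 0.48, SE 0.22, limma, adjusted p = 0.380), and its overlapping second probe averaged 0.53. The brightest Apoc3 probe read 14980, 9769, 9251 and 12250 units in deleted crypts, against 9034, 8052, 7032 and 8469 in wild type crypts. Its lowest deleted value was thus just above its highest wild type value, whereas the groups overlapped at the second probe.

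The 10 genes had a median of 1.105 in the noisier replicate and 0.45 in replicate 2. With replicate 1 left out, Apoa1 and Apob averaged below 0 (-0.13 and -0.15). Normalising by median centring in place of loess gave calls: Fabp1 (1.51), Mttp (1.22), Mogat2 (1.35) and Dgat2 (1.30) then passed, as did 2.29% of all genes on the higher side. With every outlier-marked spot left out, Fabp1 averaged 1.53 and no gene of the 10 passed.

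Markers of other cell types had values away from 0 in the same crypt comparison, and their part in the result was not tested. All 13 enterocyte markers tested were above 0 (median 0.61; 0.83 in replicate 1 and 0.45 in replicate 2), with Lct not tested, and their summed signal was 398600 to 543200 units in deleted crypts and 252100 to 316700 in wild type crypts. Among them only Ada was called higher (2.09, limma, adjusted p = 0.0428). Ada was at -0.98 in organoids by Cy5 (0.02 by ratio) and at -1.11 by ratio without R-spondin. All 8 stem cell markers were below 0 (median -0.79), with sums of 10330 to 22870 in deleted and 19460 to 55070 in wild type crypts. Of 12 T cell and other leukocyte markers, 11 were above 0 (median 1.67, with 1.57 and 1.85 in the replicates). Gzma (1.79, limma, adjusted p = 0.0477) and Ccl5 (2.47, limma, adjusted p = 0.0428) were called higher, against 0.229% of all genes. Apart from these and Ada, no marker of any list was called in crypts. Lyz2, the marker below 0 (-0.75), is also a Paneth cell gene. The sums of the 12, which include Lyz2, were 36270 to 108600 in deleted and 50820 to 81970 in wild type crypts. All 6 Paneth cell markers were below 0 (median -0.77; -1.61 in replicate 1 and -0.17 in replicate 2), with sums of 144300 to 439500 units in deleted and 370600 to 630100 in wild type crypts. Of 6 goblet cell markers 5 were below 0 (median -0.38), with sums of 140100 to 307400 units in deleted and 206000 to 316200 in wild type crypts. Of 5 enteroendocrine markers 4 were below 0 (median -0.14; -0.60 and 0.52 in the replicates). Of 5 fibroblast and smooth muscle markers 4 were below 0 (median -0.13), from Col1a2 at -1.16 and Col3a1 at -1.11 up to Tagln at 0.33. The red cell genes Hba-a1 and Hbb-b1 had a median of 1.90 in replicate 1 and 0.09 in replicate 2, with sums of 1347 to 6708 units in deleted and 1303 to 1523 in wild type crypts. Liver cell markers were not tested in crypts (0 of 4 on the array), nor were Adipoq, Fabp4, Cfd and the other fat cell markers except Lipe. They had no usable probe that was well above background throughout deleted or wild type crypts.

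In deleted organoids, 9 of the 10 genes read above wild type by Cy5, less far than in crypts, and none passed the test (limma, 13837 genes, adjusted p 0.579 or more). The median was 0.30, against 0.00 for all genes. Over all genes, 0.0289% were called higher and 0.0217% lower. Mttp alone had an unadjusted p under 0.05, against 3.09% of genes higher and 4.52% lower. Both deleted cultures lay above both wild type cultures for 4 of the 10 genes, Mttp, Mogat2, Dgat1 and Dgat2, against 16.7% of all genes. By ratio to the reference, 7 of the 10 were above 0, the median was 0.19, and 0 of the 10 were called by limma; 0 genes overall were called in either direction (0% higher and 0% lower), and 1.97% were higher and 1.82% lower at an unadjusted p under 0.05, with 0 of the 10 among them.

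**Figure D3:**
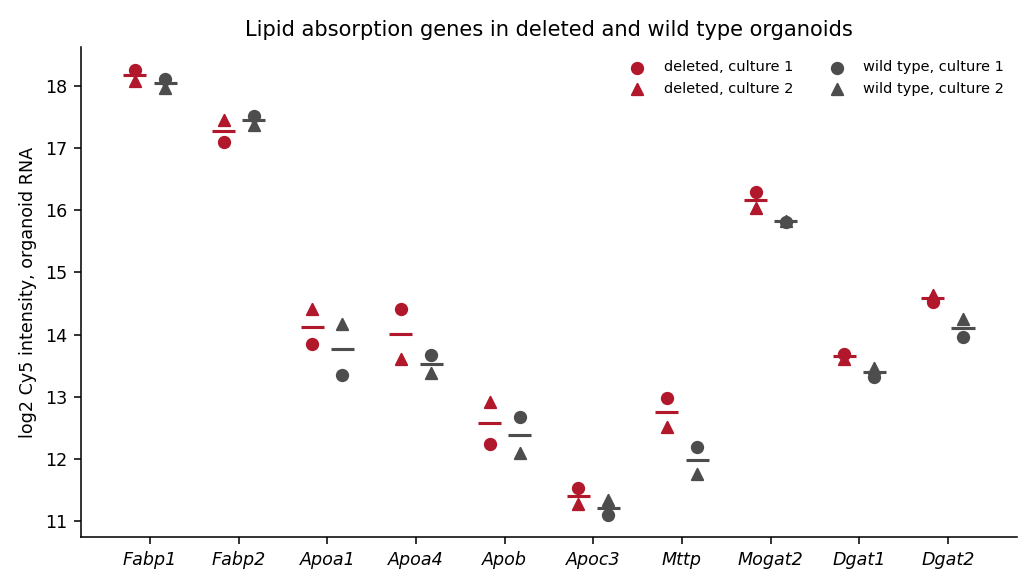
Log2 Cy5 intensity (y axis) of the brightest probe of each gene (x axis) in the 2 deleted cultures (left, red) and the 2 wild type cultures (right, grey), with a bar at each mean. The cultures do not overlap for Mttp, Mogat2, Dgat1 and Dgat2, and the wild type mean is the higher for Fabp2.

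Mttp read 8085 and 5883 intensity units in deleted organoids, against 4698 and 3462 in wild type organoids. Both deleted cultures were above both wild type cultures, and the difference was 0.77 (SE 0.28, n = 2 each, limma, adjusted p = 0.579). By ratio, which rests on the poor Cy3 channel of these arrays, its sign turned, to -1.26 (SE 0.80). Its log2 ratio to the reference was 3.47 and 4.01 on the deleted arrays. The wild type arrays gave 6.11 and 3.88, where the first stood apart. Mogat2 read 80060 and 67130 units in deleted organoids, against 57520 and 58300 in wild type organoids, a difference of 0.34 (SE 0.22, limma, adjusted p = 0.811). Dgat2 read 23650 and 25520 units in deleted organoids, against 15890 and 19550 in wild type organoids. Its difference was 0.48 (SE 0.22, limma, adjusted p = 0.692). The probe that stands for Dgat2 in crypts gave 0.90 in organoids, and the remaining probe gave 0.54. Dgat1, at 13280 and 12560 units in deleted and 10250 and 11300 in wild type organoids, differed by 0.26 (SE 0.21, limma, adjusted p = 0.869).

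The cultures overlapped for both binding proteins in organoids. Fabp1 read 314100 and 277900 units in deleted organoids, against 284400 and 256200 in wild type organoids, a difference of 0.13 (SE 0.21, limma, adjusted p = 0.966). Its value depended on the measure: it was 0.26 by ratio, 1.12 with the log ratios of the series matrix, and -0.08 with the scanner software's processed Cy5 signal. Fabp2 read 139700 and 179500 units in deleted organoids, against 188200 and 169000 in wild type organoids, a difference of -0.17 (SE 0.23, limma, adjusted p = 0.950). The sign of Fabp2 turned with the setting (0.12 with median centring, 0.03 with every marked spot left out). Its dimmer second probe gave -0.02.

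The apolipoproteins also varied between cultures of the same genotype. Apoa1 read 14690 and 21880 units in deleted organoids, against 10500 and 18520 in wild type organoids. The wild type cultures differed from each other by 0.82, more than the 0.36 (SE 0.36, limma, adjusted p = 0.902) between genotypes. Apob read 4844 and 7765 units in deleted and 6531 and 4358 in wild type organoids, a difference of 0.20 (SE 0.33, limma, adjusted p = 0.966) that was -0.43 on the first slide and 0.83 on the second. Of its other probes, the one at chr12:8014710-8014769 differed most, by 0.84 by Cy5 and 1.20 by ratio. Apoa4 differed by 0.48 (SE 0.32, limma, adjusted p = 0.827) by Cy5 and by -0.08 by ratio. Apoc3 differed by 0.18 (SE 0.23, limma, adjusted p = 0.940). Its overlapping second probe gave 0.55, at 3307 and 2243 units in deleted and 2090 and 1651 in wild type organoids. A deleted and a wild type culture shared each slide, and the median of the 10 genes was 0.45 on the first slide and 0.21 on the second.

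In the same organoids 12 of 14 enterocyte markers were above 0 by Cy5 (median 0.26) and 9 of 14 by ratio (median 0.01), with summed Cy5 signals of 256100 to 277000 units in deleted and 212000 to 223400 in wild type organoids. All 7 stem cell markers tested were below 0 (median -2.51), with sums of 2785 to 5131 units in deleted and 15730 to 27500 in wild type organoids. All 6 Paneth cell markers were below 0 by Cy5 (median -0.86) and 5 of 6 by ratio (median -0.47), and 3 of 6 goblet cell markers were above 0 by Cy5. Of the leukocyte markers, 5 of 12 were tested. Ptprc, Cd3d, Cd3g, Cd7, Cd8a, Gzma and Gzmb had no usable probe that was well above background throughout either genotype. The part of these cells in the result was not tested.

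The crypt and organoid differences were compared in a shared limma fit. Crypt minus organoid was above 0 for all 10 genes, and none passed the test (adjusted p 0.884 or more; 0.11% of 11862 genes were called). It was largest for Fabp1, at 0.86 (SE 0.39), with 0.99 in crypts beside 0.13 in organoids by Cy5, where the series matrix gave 1.12 in each system, and for Fabp2, at 0.66 (SE 0.32). It was smallest for Dgat1, at 0.08 (SE 0.30). A difference between the systems is not excluded by tests of this precision.

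Without R-spondin, in 1 culture against 1 with no replicate and no test, 9 of the 10 genes read above the culture with R-spondin by ratio to the reference. The median was 0.60, against 0.07 for all 18237 genes. Past 1 on the log2 scale, called here by size alone, lay 2 of the 10, Dgat2 and Mogat2, and none lay below -1, against 4.5% of all genes above and 6.54% below. By Cy5 alone all 10 were above 0, against 54.7% of all genes, and the median was 1.11, against 0.05 for all genes. Past 1 by Cy5 lay 6 of the 10 and below -1 none, against 5.38% of all genes above and 7.31% below.

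**Figure D4:**
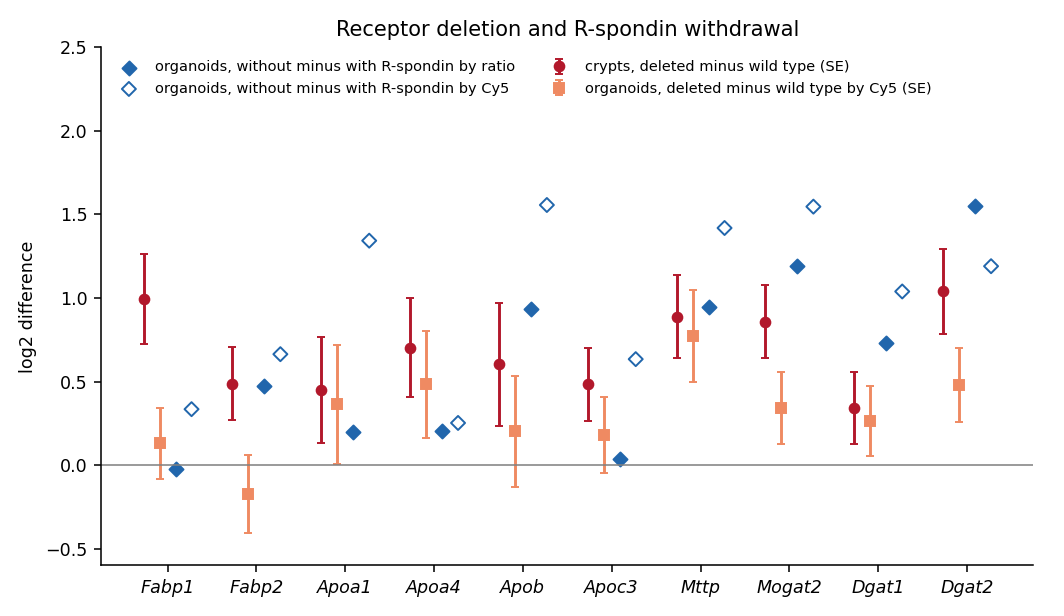
Log2 differences (y axis) for each gene (x axis) in crypts and organoids with the receptors deleted (error bars, SE, n = 2 replicates and 2 cultures each) and in 1 culture without against 1 with R-spondin, by ratio (filled) and by Cy5 (open). For Fabp1 the crypt value is the furthest from 0 of its own values, and Dgat2 and Mogat2 are past 1 by both measures without R-spondin. Dgat2 is read by a different probe in crypts than in organoids.

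By brightest probe, the neighbouring genes Dgat2 and Mogat2 showed the highest ratios. Dgat2 read 90020 units in Cy5 without R-spondin, against 39450 with it, and differed by 1.55 by ratio and 1.19 by Cy5, and its other probes by 0.94 and 1.09 by ratio. Mogat2 read 221800 units without and 75930 with R-spondin, which was 1.19 by ratio and 1.55 by Cy5. Dgat1 read 53300 units without and 25940 with R-spondin, a difference of 0.73 by ratio for its brightest probe and 1.27 for the other. The 3 triglyceride synthesis enzymes were thus higher without R-spondin at every probe and by both measures.

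Mttp read 22470 units without R-spondin, against 8403 with it (0.94 by ratio). Apob read 31380 units without and 10670 with R-spondin (0.93 by ratio), and its other 4 probes gave 1.32 to 1.59. Of the 5 Apob probes, all were higher without R-spondin by both measures.

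The ratios of the binding proteins and the surface apolipoproteins were smaller at the brightest probe of each gene. Fabp1 read 511200 units without R-spondin and 405400 with it, at -0.03 by ratio and 0.33 by Cy5. Fabp2 read 373600 units without and 235800 with R-spondin (0.47 by ratio). Its dimmer second probe gave more, at 0.90 by ratio and 2.01 by Cy5. Apoa1 read 50540 units without and 19920 with R-spondin, and its difference was 1.34 by Cy5 and 0.19 by ratio. The Cy3 channel differed too, although both arrays carried the same commercial reference RNA. A single spot out of the 10 of the Apoa1 probe read 953 Cy3 units without and 372 with R-spondin, not normalised between the arrays. Over the 10 genes, 16 of 19 probes had the higher Cy3 signal on the array without R-spondin, against 36.9% of all tested probes (median 0.40 against -0.05 on the log2 scale). Apoa4 (0.20 by ratio, 0.25 by Cy5) and Apoc3 (0.04 by ratio, 0.63 by Cy5) completed the group. With the scanner software's processed signals, Apoa1 (-0.13) and Apoc3 (-0.18) turned below 0 by ratio.

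Beside these values, 12 of 14 enterocyte markers read higher without R-spondin by ratio (median 0.96), with summed Cy5 signals of 761000 units without and 315000 with R-spondin. All 8 stem cell markers were lower (median -3.25), with sums of 3133 units without and 49800 with R-spondin, and Lgr5 read 86.8 units without and 7179 with it. Paneth cell markers were lower in 5 of 6 by ratio (median -0.61) and 6 of 6 by Cy5 (median -1.31), with sums of 193500 units without and 484400 with R-spondin. Goblet cell markers were higher in 3 of 6 by ratio (median 0.04) and 4 of 6 by Cy5 (median 1.31), with sums of 609700 units without and 271000 with R-spondin. All 6 enteroendocrine markers tested were higher by both measures (median 0.41 by ratio), with sums of 176800 units without and 86360 with R-spondin. Their part in the result was not tested. In all 3 comparisons, with organoid deletion by Cy5 and R-spondin withdrawal by ratio, 8 of the 10 genes were above 0. The exceptions were Fabp2 in deleted organoids and Fabp1 without R-spondin. By ratio, Fabp2 (-0.17), Apoa4 (-0.08) and Mttp (-1.26) were below 0 in deleted organoids. Of all genes, 47.8% were above 0 in crypts, 49.5% in organoids by Cy5 and 57.4% by ratio without R-spondin. The share above 0 in all 3 was not counted.

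Other genes of lipid handling were taken as lists. In the crypt and the organoid comparison no gene of the 7 lists was called over all genes by limma, and the values below are unadjusted descriptions; beside the medians stand -0.02 for all genes in crypts, 0.00 in organoids by Cy5 and 0.02 by ratio. Above 0 lay 47.8% of all genes in crypts, 49.5% in organoids by Cy5 and 53.9% by ratio. At an unadjusted p under 0.05, 6.59% of all genes were higher and 7.56% lower in crypts, against 3.09% and 4.52% in organoids by Cy5. Organoid values without another name are by Cy5.

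**Figure D5:**
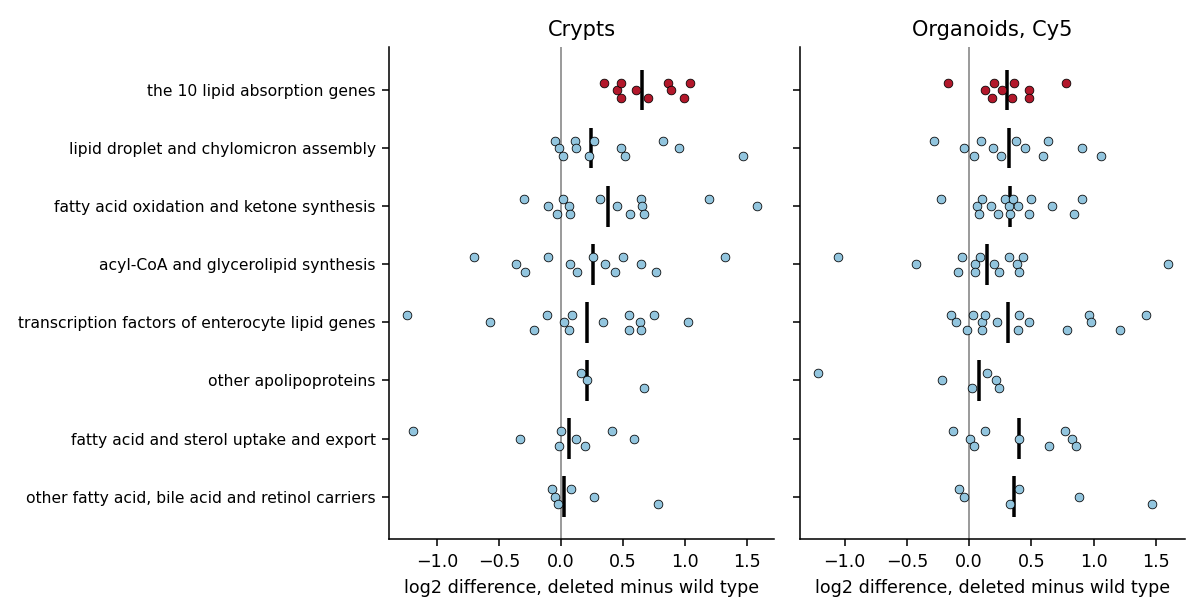
Log2 difference between deleted and wild type (x axis) in crypts (left panel) and organoids by Cy5 (right panel) for each tested gene of the 10 lipid absorption genes and of 7 lists of related genes (rows), with a bar at each median. In crypts the 10 genes lie between 0.34 and 1.04, while every list except the other apolipoproteins has genes on both sides of 0.

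Lipid droplet and chylomicron assembly genes were above 0 in 10 of 12 in crypts (median 0.24; 3 higher at an unadjusted p under 0.05) and 10 of 12 in organoids (median 0.32; 2 higher at that p), where the ratio gave 9 of 12 (median 0.29). Cidec and Cideb, proteins of lipid droplet fusion and of lipoprotein loading, were the highest in both. Cidec was at 1.47 in crypts (SE 0.22, limma, adjusted p = 0.0763), at 1.49 and 1.44 in the replicates, and at 0.91 in organoids and 1.39 by ratio without R-spondin. Cideb was at 0.95 in crypts, 1.06 in organoids and 1.101 by ratio without R-spondin. Sar1a, a GTPase of secretory vesicle budding, was among the lowest in both (-0.05 in crypts, -0.04 in organoids), beside M6prbp1, an older name of the droplet protein gene Plin3, in crypts (-0.02) and the triglyceride lipase gene Pnpla2 in organoids (-0.28).

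Acyl-CoA and glycerolipid synthesis genes were above 0 in 9 of 13 in crypts (median 0.26) and 10 of 14 in organoids (median 0.14), where the ratio gave 8 of 14 (median 0.13). Mgll, which breaks down monoacylglycerol, was highest, at 1.33 in crypts (0.54 and 2.11 in the replicates) and 1.59 in organoids, with Lpin3 next in crypts (0.76) and Soat2, the cholesterol esterifying enzyme of enterocytes, next in organoids (0.43). Soat1, its more widely expressed relative, was lowest in both (-0.71 in crypts, -1.05 in organoids) and was at -2.63 without R-spondin. Acsl3 in crypts (-0.37) and Agpat6, now Gpat4, in organoids (-0.42) came next to it.

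Fatty acid and sterol uptake and export genes were above 0 in 5 of 8 in crypts (median 0.06) and 8 of 9 in organoids (median 0.40), where the ratio gave 8 of 9 too (median 0.14). Slc27a4, a fatty acid transport protein, was highest in crypts (0.58), followed by the fatty acid receptor gene Cd36 (0.41, at 1.16 and -0.34 in the replicates). The cholesterol exporter gene Abca1 was lowest there (-1.20, at -0.24 and -2.16) and Slc27a2 next (-0.33). In organoids Npc1l1, the cholesterol uptake protein, was highest (0.86), then Abca1 (0.82), and Scarb1 (-0.13) was lowest.

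The other carriers of fatty acids, bile acids and retinol were above 0 in 3 of 6 in crypts (median 0.03) and 4 of 6 in organoids (median 0.36), where the ratio gave 6 of 6 (median 0.27). Rbp2, the retinol carrier of enterocytes, was highest in crypts (0.78), and Scp2 (-0.07) and Rbp4 (-0.05) were lowest. In organoids Rbp4 was highest (1.47), and Dbi (-0.08) and Scp2 (-0.04) were lowest. Of 8 other apolipoproteins, 3 were tested in crypts, and these were all above 0: Apoe at 0.67, Apoc1 at 0.21 and Apoc2 at 0.16. In organoids 4 of 6 were above 0 by Cy5 and by ratio (medians 0.08 and 0.01), with Apoc2 (0.24) and Apoa2 (0.22) highest and Clu (-1.22) and Apoe (-0.22) lowest.

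Transcription factors known to act on enterocyte lipid genes were above 0 in 10 of 14 in crypts (median 0.21; 5 higher and 2 lower at an unadjusted p under 0.05) and 13 of 16 in organoids (median 0.31; 3 higher at that p), where the ratio gave 9 of 16 (median 0.07). Creb3l3, a factor known to drive Apoa4 in mouse, was highest in crypts (1.03, at 1.34 and 0.72 in the replicates) and was at 0.78 in organoids, and the fatty acid receptor gene Pparg was next (0.74). Nr5a2 (-1.25) and Mlxipl (-0.58) were lowest. In organoids Hnf4g (1.42, but 0.13 by ratio) and Ppargc1a (1.21, but 0.18 by ratio) were highest, and Srebf1 (-0.15) and Cdx2 (-0.11) lowest.

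Fatty acid oxidation and ketone synthesis genes were above 0 in 11 of 14 in crypts (median 0.38; 6 higher at an unadjusted p under 0.05) and 15 of 16 in organoids (median 0.33; 2 higher at that p), where the ratio gave 14 of 16 (median 0.23). Acot1, an acyl-CoA thioesterase, was highest in crypts (1.58, at 0.89 and 2.27 in the replicates), then Acadl, an acyl-CoA dehydrogenase (1.19), and Pdk4 (-0.30) and Hadhb (-0.11) were lowest. In organoids Cyp4a10 (0.91) and Acaa2 (0.84) were highest, and Acadl (-0.23) and Etfdh (0.07) lowest.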

How the data were processed

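Scanner files of 10 arrays were used. The authors' deposited columns hold spot and local background intensity, processed intensity (background and dye already corrected by the scanner software), and a log10 ratio of red over green, per the file headers, which name Agilent Feature Extraction 10.5.1.1 (8.5.1.1 per the submitters' processing notes). The series matrix repeats these log10 ratios, with all crypt columns as deleted over wild type.

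Raw intensities were corrected by normexp (offset 50) and normalised by loess within arrays, or, for organoid Cy5, by quantiles between arrays, in limma 3.58.1 under R 4.3.3 with the package data.table in version 1.17.8. Each crypt replicate is the mean of its dye-swapped arrays, read as deleted over wild type. Crypt signals per channel were scaled by average intensity (Aquantile). Each gene was read by its brightest probe, provided that the scanner software called it well above background throughout a group. The probe also had to have a value in every replicate. Spots marked as outliers were left out; spots marked only in their local background kept their signal, with the array's median background. Of 190 member values (19 probes on 10 arrays, each probe counted once per array), 25 were marked in the background only and 6 in the spot. Of the 10 Apoa1 spots, 7 and 8 were used on the arrays of crypt replicate 1, and 10 on each array of replicate 2. The rule on marked spots was chosen after the data had been seen, because the marks fell on bright spots. The tests were two-sided in limma with Benjamini-Hochberg adjustment at 0.05, and the fits were tested on simulated data. SEs and p-values rest only on the spread between these samples, and limma draws each gene's spread toward that of all genes tested.

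Named genes are the 10 members with all their probes, Lgr4 and Lgr5, and of each related list the 2 highest and 2 lowest tested genes in crypts and in organoids by Cy5; some of these list genes are not reported here. Members, lists and markers were chosen with earlier results of these data known. Marker genes named beside a result were picked to say which were or were not tested, which were called in crypts, or for their values. Alternatives covered background, normalisation, marked spots, filters, probes, slides and each replicate.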

Additional observations from a re-analysis of the deposited data

How the results depend on the processing

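In crypts, the median of the 10 genes, 0.65, was 1.02 with median centring, 0.45 without replicate 1 and 1.105 without replicate 2. The SD of the median between the 2 replicates was 0.46, and no alternative moved the median further. That limit comes from the same 2 replicates, so leaving 1 of them out could hardly pass it. Members were called only with median centring (4 of the 10). The share of all genes called, 0.229% higher and 0.049% lower, did move. It was 2.28% higher and 1.13% lower with processed signals or the series matrix, 2.29% and 0.515% with median centring, 0.752% and 0.262% with no background subtracted, 0.0495% and 0.00825% with every marked spot left out (an alternative chosen after seeing the data), 0% and 0% with no filter on dim probes, and 0.0627% and 0.00895% where both channels had to be above background. With marked spots kept in the background fit 0.0975% were lower. Leaving out a crypt replicate gave 0.0327% to 1.64% higher and 0% to 3.08% lower, the larger shares without replicate 1. Apoa1 was 1.03 without replicate 2 and -0.13 without replicate 1, and Apob was 1.35 and -0.15. The lone replicate is assumed there to vary like the organoid cultures.

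In organoids by Cy5, 0.0289% of genes were called higher and 0.0217% lower. The shares were 0% and 0% by ratio and with no filter, 0.296% and 0.397% with processed signals, 0.947% and 1.47% with slide as a block, 0% lower with the series matrix, 0.00781% lower with every marked spot left out, and 0% to 0.759% higher and 0% to 0.491% lower with each culture left out in turn, the highest without wild type culture 1 (0.0795% lower without wild type culture 2). No member was called in any of these. The members' median was 0.57 with median centring and 0.49 with the series matrix, which put Fabp1 at 1.12. Signs turned for Apoa4 (-0.0753) and Mttp (-1.26) by ratio, Fabp1 (-0.0849) and Fabp2 (0.0134) with processed signals, and Fabp2 with median centring (0.12), the series matrix (0.0677), every marked spot left out (0.0339) and on slide 2 (0.0866); leaving out cultures, Fabp2 ranged between -0.352 and 0.0093, the higher without deleted culture 1. Apob was -0.43 on slide 1 and -0.14 to 0.54 with cultures left out (below 0 without deleted culture 2 or wild type culture 2, -0.0907). Apoc3 was -0.0676 on slide 2, and Apoa1 was -0.047 without wild type culture 1 and up to 0.77 otherwise.

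Without R-spondin, 6 members were past 1 by Cy5, 4 with median centring, 4 of the 10 over every probe, and 1 with every marked spot left out, where 6 of the 10 had a value and Mogat2 had none. The median was 1.11 by Cy5, 0.43 with processed signals and the series matrix, 0.80 with median centring, 0.82 over every probe and 0.84 with marked spots left out. Fabp1 turned positive by Cy5 (0.33) and median centring (0.16), and Apoa1 (-0.13) and Apoc3 (-0.18) turned negative with processed signals and the series matrix. The causes were not tested. The labels give the organoid cultures no replicate numbers, so the only paired fit is the one with slide as a block, in which each slide holds a deleted and a wild type culture; each crypt array already pairs a deleted with a wild type sample.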
